A study of Mus musculus with 16 samples.

Results

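Motile cilia genes were examined in striatal RNA of R6/1 males and of littermates without the transgene. The set holds 39 genes, given by symbol, that encode parts of the motile cilium, the factors that assemble it and transcription factors of ciliated cells, together with the ependymal genes Ccdc153 and Tmem212. All 39 were found among the 55450 genes of the count table, and all 39 reached 10 counts in 4 or more of the 16 libraries, as did 19363 genes in all. Each library came from the striatum of 1 male mouse of 14 weeks on a C57Bl/6 background (C57BL/6J in the study's methods), and no mouse was treated. R6/1 mice carry a transgene of exon 1 of human huntingtin with an expanded CAG repeat under the human promoter, and model Huntington disease. The 4 groups of 4 mice were wild-type mice with good or with poor performance in behavioural tests and R6/1 mice with good or with poor performance. Performance was ranked from rotarod, feet clasping and body weight, so the groups are the extremes of each genotype and not a separate treatment. The transgene itself was not analysed here.

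Motile cilia beat. Their core is a ring of doublet microtubules around a central pair, and bending is driven by outer and inner dynein arms, which radial spokes, the central pair and the nexin-dynein regulatory complex coordinate. In the brain such cilia stand in tufts on ependymal cells, the epithelium that lines the ventricles and moves cerebrospinal fluid, and the lateral ventricle borders the striatum. FOXJ1 is the transcription factor that commits a cell to motile ciliogenesis, and RFX factors such as RFX3 bind the X-box, a sequence found upstream of many ciliary genes. Neurons and astrocytes, in contrast, carry a single immotile primary cilium. In whole striatum, fewer cells of a type and less RNA per cell cannot be told apart.

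Promoter windows are shown first, since RFX3 and FOXJ1 are themselves in the set. RefSeq windows (build GRCm38.p6, from 250 bases before to 50 bases after each start) were at hand for 33 of the 39 genes, all but Cfap54, Cfap65, Dnaaf1, Foxj1, Rsph1 and Rsph4a. The X-box core GTTNCC, read on both strands, was present for 28 of these 33 genes (84.8%) and for 48.8% of all 27025 genes with a window. The stretches below show the core in capitals with 10 bases on each side, read in the direction of the core. They were chosen after the values were seen, for 5 of the genes called between R6/1 and wild-type mice, and for 4 genes with a fuller X-box or with levels that followed the rest of the set closely. No core was found for Dnah1, called in both R6/1 groups, for Ak7 and Dnah12, which followed the set closely (r = 0.97 each), or for Dnah11 and Cfap69.
Stk36 (chr1:74601456-74601481, gene on the plus strand): agagtcttcaGTTGCCtagaaacggc
Drc1 (chr5:30281372-30281397, plus strand): ggaacaagccGTTGCCaagggaaagc
Rsph9 (chr17:46144223-46144248, minus strand): gtggtattttGTTTCCtgctagctta
Tekt4 (chr17:25471588-25471613, plus strand): aaggttcctgGTTGCCtaaggaacat
Cfap45 (chr1:172521109-172521134, plus strand): gagctgacgcGTTACCatagcaaccc
Cfap44 (chr16:44394770-44394795, plus strand): gtttactgcgGTTGCCatagcaacgt
Dnai2 (chr11:114727383-114727408, plus strand): gagtttaccaGTTGCCtagcaaccct
Spag16 (chr1:69826857-69826882, plus strand): taggcaacgcGTTGCCgtagtaactg
Dnah9 (chr11:66168618-66168643, minus strand): gcttccaccaGTTTCCcagcaacaac

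In each window the core nearest the annotated start was taken, so its distance from the start partly reflects this choice. It lay 11 bases before the start in Drc1 and Cfap45 and 11 bases after it in Stk36. Distances in other genes were not compared. The RefSeq starts used for Tekt4, Cfap43 and Cfap45 lie inside the GENCODE gene, and the window of Dnah12 ends before the GENCODE gene begins. Starts of other genes can also differ between these annotations. An X-box in the strict sense, GTTNCC followed within 0 to 3 bases by its reverse complement GGNAAC, was found in 1 of the 36 windows of the set (2.78%), that of Ak9, as GTTTCCAAGGCAAC beginning 11 bases before the start. It was found in 0.804% of all 32851 windows. A wider reading of the X-box, with the purine and pyrimidine alternatives of the RFX motif in both arms, was added after the windows had been read. It matched 6 of the 36 windows (16.7%), those of Cfap44, Cfap45, Dnai1, Dnai2, Hydin and Spag16, and 1.53% of all windows, partly through letters shared with the core. The forkhead core TGTTTAC was found for Ak7 and Cfap43, in 5.56% of the windows of the set and 3.65% of all windows. A match is a string of letters, and binding was not measured.

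The total count per library ranged from 16155356 to 24897354 (median 20889934). Levels are given as CPM, counts of a gene per 1000000 counts of its library, with library sizes adjusted by TMM, a normalisation that trims the genes with the most extreme ratios. Medium spiny neuron genes mark the striatum, and the summed level of 12 such genes was between 7360 and 11500 CPM in wild-type mice, between 2740 and 4440 CPM in R6/1 good mice and between 1780 and 2560 CPM in R6/1 poor mice. Libraries carry a running number in the labels, and this number is unevenly spread over the groups. All 4 R6/1 good mice had numbers from 1 to 8, whereas R6/1 poor mice 1, 3 and 4 had numbers from 9 to 16. The labels do not say what the number stands for, so for the genes called between R6/1 and wild-type mice the values within libraries 1 to 8 and within libraries 9 to 16 are given too. R6/1 poor mouse 2 is the only R6/1 poor mouse in the first set, and the second set holds no R6/1 good mouse.

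Mice of the same group differed from each other in this set of genes. The mean log2 CPM of the 39 genes was 0.55, 2.07, 1.88 and 2.18 in wild-type good mice 1 to 4, and 2.08, 1.60, 2.67 and 2.02 in wild-type poor mice 1 to 4. It was 1.79, 2.17, 2.04 and 1.67 in R6/1 good mice and 3.05, 2.05, 2.47 and 2.02 in R6/1 poor mice. Wild-type good mouse 1 was below every other mouse, R6/1 poor mouse 1 was above every other mouse, and the other values of the 4 groups overlapped. Group means were 1.67 ± 0.76 (SD, n = 4) for wild-type good, 2.09 ± 0.44 for wild-type poor, 1.92 ± 0.23 for R6/1 good and 2.40 ± 0.48 for R6/1 poor mice, with a pooled SD between mice of a group of 0.51. Without wild-type good mouse 1 the mean of its group was 2.04 ± 0.15 (n = 3), and without R6/1 poor mouse 1 that of its group was 2.18 ± 0.25 (n = 3).

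**Figure D1:**
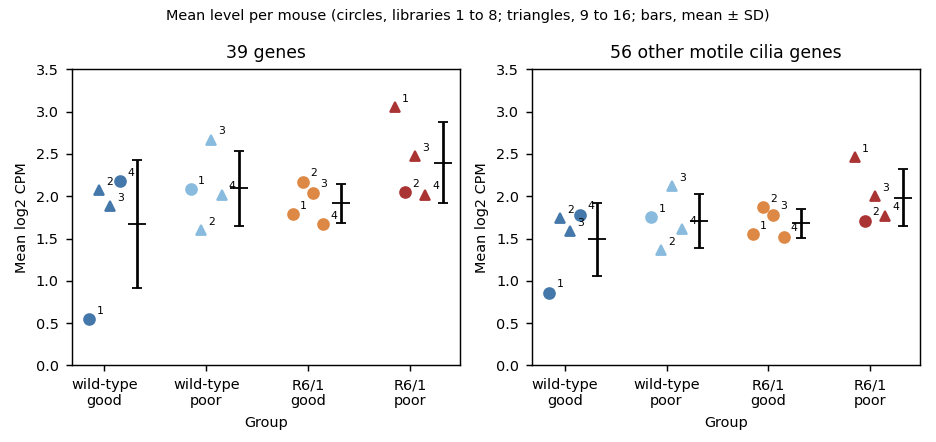
Mean log2 CPM (vertical axis) of the 39 genes (left) and of 56 other motile cilia genes (right) in each mouse, by group; numbers name the mouse, circles are libraries 1 to 8, triangles libraries 9 to 16, and bars give the mean ± SD of 4 mice. Wild-type good mouse 1 (0.55 for the 39 genes) lies lowest and R6/1 poor mouse 1 (3.05) highest in both panels, and the other mice of the 4 groups overlap.

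Wild-type good mouse 1 had the lowest level of all 16 mice for 27 of the 39 genes, and R6/1 poor mouse 1 the highest for 31. Ccdc153, a subunit of the nexin-dynein regulatory complex, was at 0 counts in wild-type good mouse 1, which allows a level of up to 0.157 CPM (3 counts, counting error only), and between 2.27 and 10 CPM in the other 7 wild-type mice. Tmem212, a membrane protein typical of ependymal cells, was also at 0 counts in that mouse and between 1.40 and 5.14 CPM in the other wild-type mice. The library was not a shallow one, with 20171478 counts in total. For Ak7, an adenylate kinase of motile cilia, its 0.47 CPM were 9.32% of the median of the other wild-type mice.

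Over the 16 mice this coordinated variation was not equally close in all of the set. For each gene, Pearson's r of its log2 CPM with the mean of the other 38 genes was taken over the 16 libraries, as a description, since all points of a library share that library's cells and scaling. It was at least 0.9 for 16 genes, from 0.6 to under 0.9 for 13 and under 0.6 for 10. The first of these classes contained dynein heavy chains (Dnah2, Dnah5, Dnah6, Dnah9, Dnah11, Dnah12), both adenylate kinases (Ak7, Ak9), the central pair proteins Hydin and Spag16, the radial spoke head protein Rsph4a, Cfap43, Cfap44, Cfap52, Ccdc153 and Tmem212. The class under 0.6 contained Drc1 (-0.34), Dnai2 (-0.22), Dnah1 (0.03), Dnaaf1 (0.24), Dnai1 (0.38), Dnaaf3 (0.43), Stk36 (0.44), Rfx3 (0.51), Foxj1 (0.54) and Tekt4 (0.57). Since r was taken over mice of both genotypes, a difference between genotypes can lower it. Dnah1, Drc1, Stk36 and Tekt4 of this class were called between R6/1 and wild-type mice, and r within a genotype was not taken. Parts of the outer dynein arm thus fell into different classes, with the heavy chains Dnah5, Dnah9 and Dnah11 in the first and the intermediate chains Dnai1 and Dnai2 and the assembly factors Dnaaf1 and Dnaaf3 in the last. Exons of Dnai1, Dnaaf1 and Dnaaf3 overlap another gene, as do those of Dnah9 and Dnah11, whereas Dnah5 and Dnai2 have no such overlap. Whether reads of the overlapping genes affect these values of r was not tested. The classes depended on wild-type good mouse 1, the lowest library. Without it r was at least 0.9 for 7 genes, all among the 16, from 0.6 to under 0.9 for 18 and under 0.6 for 14. Of the 16, Rsph4a went from 0.91 to 0.80, Dnah2 from 0.91 to 0.82 and Dnah5 from 0.93 to 0.85, whereas Ak7 went from 0.97 to 0.95. Zmynd10, Rsph9, Spag6l, Cfap69 and Cfap54 then had r under 0.6, Rfx3 went from 0.51 to -0.04, and Foxj1 rose from 0.54 to 0.69 and left the lowest class.

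**Figure D2:**
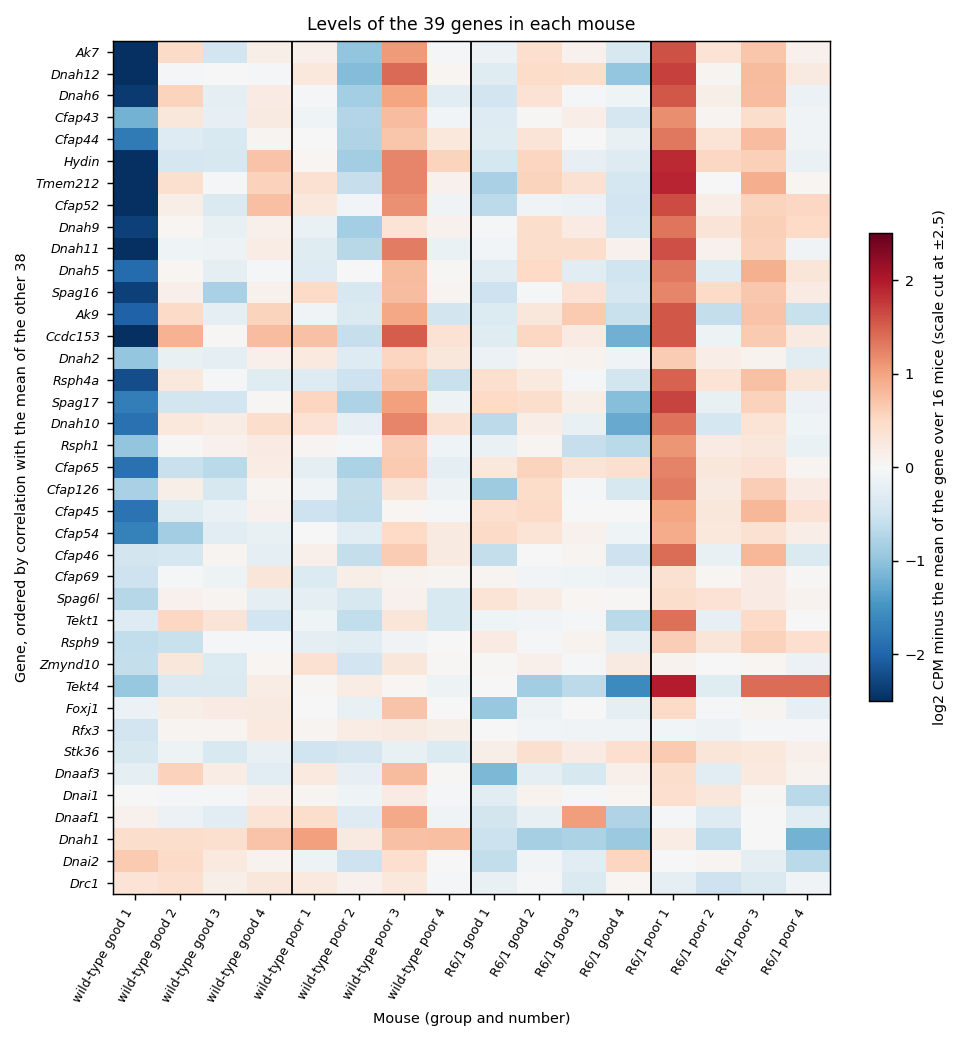
Level of each of the 39 genes (rows, ordered by r with the mean of the other 38, highest at the top) in each of the 16 mice (columns), as log2 CPM minus the mean of the gene, with red above and blue below that mean and the colours cut at ±2.5. The upper rows move together, with wild-type good mouse 1 low and R6/1 poor mouse 1 high. Drc1, Dnai2 and Dnah1 at the bottom follow the genotype or neither pattern, with r taken over both genotypes.

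For 3 of the genes with r of at least 0.95, chosen after their values were seen, the level in each mouse is given here. Ak7 was at 0.47, 6.45, 3.28 and 5.06 CPM in wild-type good mice, 5.04, 2.27, 9.63 and 4.49 CPM in wild-type poor mice, 4.12, 6.18, 4.97 and 3.45 CPM in R6/1 good mice, and 14, 5.84, 7.46 and 4.95 CPM in R6/1 poor mice. Cfap44, which tethers inner dynein arms to the doublet together with Cfap43, was at 1.72, 4.79, 4.64 and 6.35 CPM, 6.0, 3.58, 9.84 and 7.29 CPM, 4.90, 7.55, 6.08 and 5.34 CPM, and 15.2, 7.72, 10.5 and 5.69 CPM in the same order. Hydin was at 0.104, 1.29, 1.32 and 2.96 CPM, 1.81, 0.918, 4.25 and 2.62 CPM, 1.27, 2.60, 1.52 and 1.40 CPM, and 6.67, 2.56, 2.72 and 1.55 CPM. In each of the 3 genes wild-type good mouse 1 was lowest and R6/1 poor mouse 1 highest, and wild-type poor mouse 3 was the highest wild-type mouse. In all of them the ranges of the 4 groups overlapped.

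The dynein heavy chains apart from Dnah1 covered a wide range over the 16 mice. Dnah6 was between 0.678 and 11.9 CPM, Dnah5 between 0.939 and 9.70 CPM, Dnah9 between 0.678 and 9.70 CPM, Dnah12 between 0.157 and 6.24 CPM, Dnah10 between 0.626 and 6.58 CPM, Dnah11 between 0.104 and 5.38 CPM and Dnah2 between 3.44 and 10.6 CPM. Both intermediate chains and Zmynd10 stayed within narrower limits. Dnai1 was between 3.23 and 7.05 CPM, Dnai2 between 3.72 and 9.50 CPM, and Zmynd10, which helps to assemble dynein arms in the cytoplasm, between 3.13 and 6.25 CPM. Dnaaf1 and Dnaaf3 had low counts, 6 to 29 and 10 to 52 per library, which limits how well a change in them could be seen. They were between 0.30 and 1.29 CPM (4.29-fold) and between 0.49 and 2.12 CPM (4.33-fold, against 3.08-fold for Dnah2). Their means of 0.611 and 1.24 CPM lay on either side of that of Ak9 (0.834 CPM), which followed the set (r = 0.91). Cfap69, needed for sperm flagella and olfactory cilia, was at 22.2 CPM on average and ranged only from 15.3 to 28.7 CPM. Of the remaining genes Cfap46 of the central pair ranged from 3.33 to 13.5 CPM, Cfap43 from 1.88 to 9.96 CPM, Rsph1 from 1.98 to 8.72 CPM, Rsph4a from 0.887 to 12.7 CPM and Ak9 from 0.104 to 2.27 CPM.

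Outside the lists used here, the 10 genes most like the mean of the set over the 16 libraries were Lrrc36 (r = 0.96), Fam216b, Crocc2, Frmpd2, Ccdc180 and Ccdc170 (0.95 each), and Lrrc74b, Ttc21a, Daw1 and Gm10714 (0.94 each). Lrrc36 had 3 counts in wild-type good mouse 1 and 89 in R6/1 poor mouse 1. Daw1, an assembly factor of outer dynein arms, had 0 and 50 counts.

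Levels per kilobase of exon differed widely within the set. Drc1, a scaffold of the nexin-dynein regulatory complex, was highest at 9.01 CPM per kb (mean of 16 mice), followed by the radial spoke head gene Rsph9 at 6.11 and Rfx3 at 5.83. Spag17 (0.102 CPM per kb) and Hydin (0.123), both of the central pair, and Ak9 (0.12) were lowest. In each of the 4 groups the mean per kb of each of the 3 highest genes was above that of each of the 3 lowest. Single genes also spread widely between mice, with Hydin between 0.104 and 6.67 CPM. Exons of 16 of the 39 genes overlap another gene. Among them are Dnah1 with Gm35823, Cfap45 with 4933439K11Rik by 3 bases, Cfap65 with Gm15841 and Spag17 with Wdr3. Dnaaf1 overlaps Taf1c, Dnai1 overlaps Enho and Dnaaf3 overlaps Tnni3, the last on the same strand. Wdr3, Taf1c and Enho each had more counts than the gene of the set that they overlap. Since the strand setting of the counting is not given, part of the counts of these 16 genes may belong to the partner.

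The question of genotype was addressed by comparing each R6/1 group with the 8 wild-type mice. Both comparisons share these controls. A gene was called where edgeR's quasi-likelihood p, adjusted after Benjamini and Hochberg over all 19363 genes, was under 0.05. In R6/1 good mice 1 of the 39 genes was higher (Stk36) and 2 were lower (Dnah1 and Drc1), whereas 12.1% of all genes were called higher and 12.4% lower. In R6/1 poor mice 6 of the 39 genes were higher, that is 15.4% against 13.5% of all genes, and 2 were lower, 5.13% against 14.9%. The 6 were Tekt4, Cfap45, Cfap126, Rsph9, Stk36 and Spag6l, and the 2 were again Dnah1 and Drc1. The share of higher calls was thus below that of all genes in R6/1 good mice and close to it in R6/1 poor mice, and the share of lower calls was below it in both. The median log2 fold change of the 39 genes was -0.06 in R6/1 good mice (0.01 over all genes) and 0.66 in R6/1 poor mice (0.00 over all genes). Without R6/1 poor mouse 1 the latter was 0.22, with 3 higher and 2 lower calls, where 8.58% of all genes were called higher and 11.2% lower. Without wild-type poor mouse 3 there were 11 higher and 2 lower calls, where 12.4% of all genes were called higher and 14.3% lower. Within libraries 1 to 8 only Drc1 of the 39 was called in R6/1 poor mice, where 2.3% of all genes were called in either direction.

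**Figure D3:**
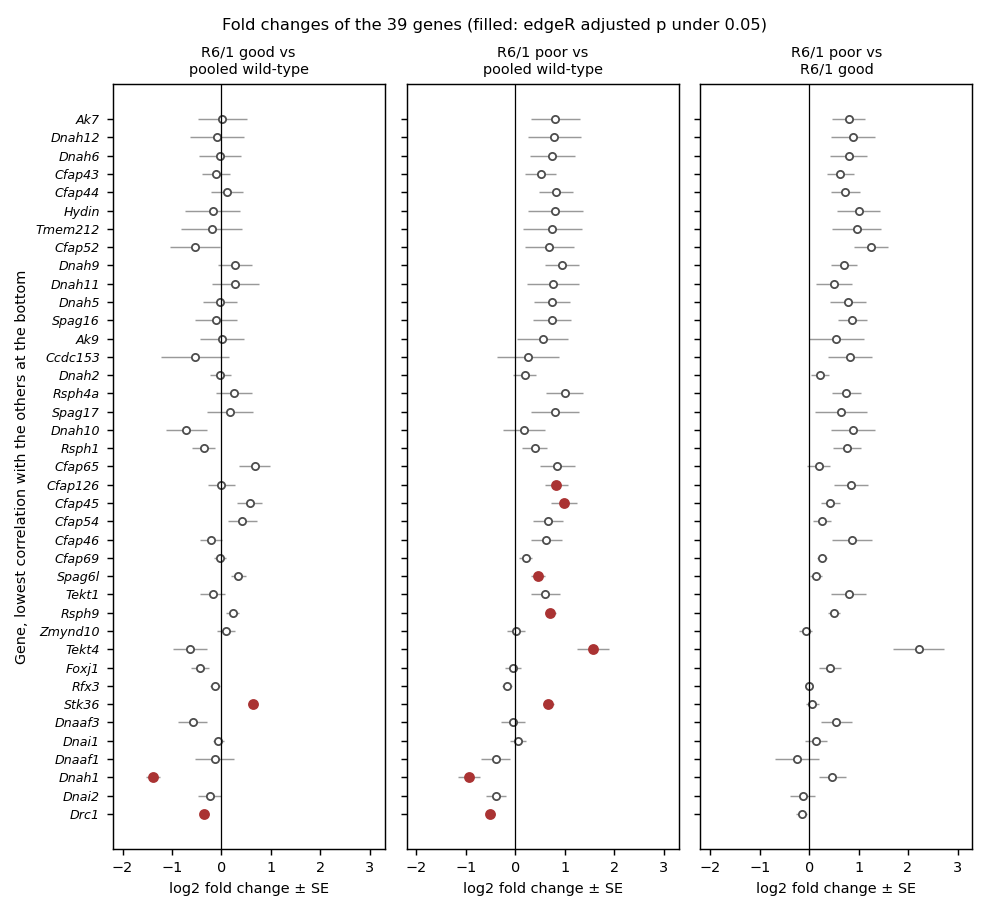
log2 fold change ± SE (horizontal axis) of the 39 genes, from highest r with the rest of the set (top) to lowest (bottom), in 3 comparisons, with filled points for an edgeR adjusted p under 0.05. In R6/1 good against pooled wild-type mice Stk36, Dnah1 and Drc1 are filled, in R6/1 poor against pooled wild-type mice 8 genes are filled, and in R6/1 poor against R6/1 good mice none is.

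Stk36 (chr1:74601445-74636894, plus strand, GRCm38) encodes a serine/threonine kinase, the homologue of fly Fused, which is needed to build the central pair of motile cilia. Its level was 6.57, 7.93, 6.69 and 7.69 CPM in wild-type good mice and 6.10, 6.48, 7.59 and 6.85 CPM in wild-type poor mice. It was 9.70, 11.6, 10.1 and 11.7 CPM in R6/1 good mice and 13.8, 10.7, 10.5 and 9.49 CPM in R6/1 poor mice. All 8 R6/1 mice were above all 8 wild-type mice, with no overlap. The log2 fold change was 0.63 ± 0.10 (SE) in R6/1 good mice (edgeR adjusted p = 0.00038) and 0.67 ± 0.11 in R6/1 poor mice (adjusted p = 0.00052). Within libraries 1 to 8 it was 0.66 in both groups (adjusted p = 0.0085 for the R6/1 good and 0.17 for the R6/1 poor group), and within libraries 9 to 16 it was 0.66 in R6/1 poor mice (adjusted p = 0.011). Over the mice of both genotypes Stk36 did not follow the mean of the set closely (r = 0.44). Wild-type good mouse 1, lowest for most genes, was within the wild-type range for Stk36.

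Dnah1 (chr14:31260375-31323896, minus strand), a heavy chain of an inner dynein arm, moved the other way. It was at 21.5, 21.5, 21.0 and 26.2 CPM in wild-type good mice and at 32.3, 18.5, 26.5 and 26.7 CPM in wild-type poor mice. In R6/1 good mice it was at 10.9, 8.83, 9.11 and 8.29 CPM, and in R6/1 poor mice at 18, 10.3, 15.8 and 6.96 CPM. Every R6/1 mouse was below every wild-type mouse, and R6/1 poor mice 1 and 3, the highest of the genotype for Dnah1, were also the highest of the genotype for the mean of the set. The log2 fold change was -1.38 ± 0.14 in R6/1 good mice (edgeR adjusted p = 1.3e-05) and -0.93 ± 0.22 in R6/1 poor mice (adjusted p = 0.0074). In R6/1 good mice it kept its call within libraries 1 to 8 (-1.53, adjusted p = 0.0004). In R6/1 poor mice it passed the test neither within libraries 1 to 8 (-1.38, adjusted p = 0.067) nor within libraries 9 to 16 (-0.75, adjusted p = 0.094). Of the 8 dynein heavy chains in the set Dnah1 was the only one called in these 2 comparisons, and the others ranged from -0.71 (Dnah10) to 0.28 (Dnah11) in R6/1 good mice and from 0.17 (Dnah10) to 0.95 (Dnah9) in R6/1 poor mice. Dnah1 was also the heavy chain with the highest level per kilobase, at 1.35 CPM per kb against 0.467 for Dnah2.

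Drc1 (chr5:30281388-30366695, plus strand) also fell. Wild-type good mice had 30.2, 31.7, 26.2 and 28.8 CPM, wild-type poor mice 28.2, 25.6, 28.4 and 23.1 CPM, R6/1 good mice 20.8, 23.1, 18.5 and 24.6 CPM and R6/1 poor mice 20.3, 16.6, 18.4 and 22.4 CPM. R6/1 poor mice were all below the wild-type range, and R6/1 good mice reached into it with mouse 4 and touched it with mouse 2. The log2 fold change was -0.35 ± 0.09 in R6/1 good mice (edgeR adjusted p = 0.012) and -0.51 ± 0.09 in R6/1 poor mice (adjusted p = 0.0012). Drc1 was called within libraries 1 to 8 in both groups (-0.43, adjusted p = 0.016, and -0.81, adjusted p = 0.04) and within libraries 9 to 16 in R6/1 poor mice (-0.41, adjusted p = 0.032). Ccdc153, of the same complex, had -0.54 and 0.26 in the same comparisons and was not called in either.

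**Figure D4:**
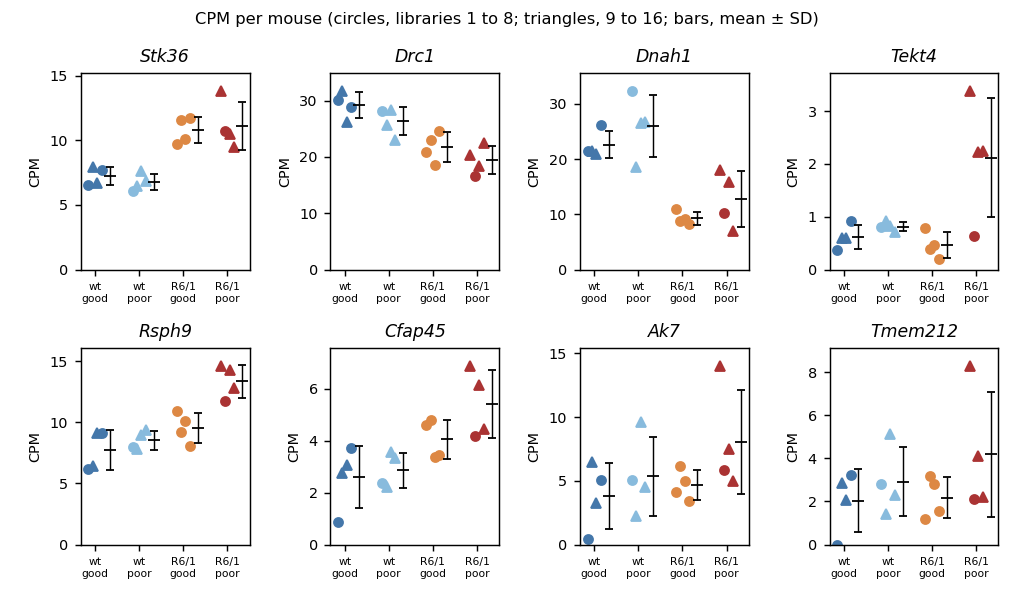
CPM (vertical axes from 0, each panel with its own range) of 8 genes in each mouse, by group; circles are libraries 1 to 8, triangles libraries 9 to 16, and bars give the mean ± SD of 4 mice. Stk36 is higher and Dnah1 lower in all 8 R6/1 mice, Tekt4 is high in R6/1 poor mice 1, 3 and 4, Rsph9 is highest in the R6/1 poor group, and Ak7 and Tmem212 spread widely within groups.

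Tekt4, one of the tektins that form filaments inside doublet microtubules, gave the largest fold change among the genes called higher. Its level was between 0.365 and 0.918 CPM in the 8 wild-type mice, 0.784, 0.392, 0.467 and 0.20 CPM in R6/1 good mice, and 3.38, 0.628, 2.23 and 2.25 CPM in R6/1 poor mice. R6/1 poor mice 1, 3 and 4 were above all other mice, whereas R6/1 poor mouse 2 was within the range of wild-type mice. The log2 fold change of R6/1 poor against wild-type mice was 1.57 ± 0.33 (edgeR adjusted p = 0.0027), and that of R6/1 good mice -0.63 ± 0.34 (adjusted p = 0.19). R6/1 poor mouse 2 was also the only one of its group among libraries 1 to 8, and within these libraries the log2 fold change was -0.15 (adjusted p = 0.93), against 1.84 within libraries 9 to 16 (adjusted p = 0.0013). R6/1 poor mouse 4 had an ordinary mean of the set (2.02) together with this high Tekt4. Tekt1, the other tektin, was at 5.47, 1.79, 2.92 and 2.09 CPM in R6/1 poor mice and between 1.31 and 3.0 CPM in wild-type mice, and its log2 fold change of 0.61 was not called.

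The radial spoke head transmits signals from the central pair to the dynein arms. Rsph9 was at 6.16, 6.41, 9.15 and 9.14 CPM in wild-type good mice, 8.01, 7.78, 8.98 and 9.38 CPM in wild-type poor mice, 10.9, 9.17, 10.1 and 8.04 CPM in R6/1 good mice, and 14.6, 11.7, 14.3 and 12.8 CPM in R6/1 poor mice. The 4 R6/1 poor mice were above all other mice. The log2 fold change against wild-type mice was 0.71 ± 0.12 in R6/1 poor mice (edgeR adjusted p = 0.00067) and 0.23 in R6/1 good mice, which was not called. In R6/1 poor mice it was 0.59 within libraries 1 to 8 (adjusted p = 0.27) and 0.73 within libraries 9 to 16 (adjusted p = 0.006). Rsph4a (1.00) and Rsph1 (0.39) had positive log2 fold changes in R6/1 poor mice that did not pass the test.

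Cfap45, a protein of the lumen of doublet microtubules, was at 0.887, 2.77, 3.05 and 3.71 CPM in wild-type good mice and at 2.37, 2.22, 3.55 and 3.33 CPM in wild-type poor mice. It was at 4.61, 4.81, 3.39 and 3.45 CPM in R6/1 good mice and at 6.88, 4.20, 6.16 and 4.46 CPM in R6/1 poor mice. The 4 R6/1 poor mice were above the wild-type range and the R6/1 good mice overlapped it. Its log2 fold change in R6/1 poor mice was 0.98 ± 0.26 (edgeR adjusted p = 0.012). Cfap126, which positions basal bodies, was at 5.26, 2.46, 3.24 and 2.41 CPM in R6/1 poor mice and between 1.15 and 2.61 CPM in wild-type mice, and the groups overlapped (0.83 ± 0.24, adjusted p = 0.019). Spag6l, a central pair protein, was at 11.6, 11.0, 9.89 and 9.16 CPM in R6/1 poor mice and between 5.22 and 9.27 CPM in wild-type mice (0.46 ± 0.15, adjusted p = 0.027). Without R6/1 poor mouse 1 none of these last 3 genes passed the test (adjusted p = 0.0524 for Cfap45, 0.13 for Cfap126 and 0.096 for Spag6l), while Stk36, Rsph9, Tekt4, Dnah1 and Drc1 remained called. Spag6l also lost its call without R6/1 poor mouse 2 (adjusted p = 0.067) and without mouse 3 (0.055). Within libraries 1 to 8 none of the 3 was called (0.85, 0.47 and 0.73 for Cfap45, Cfap126 and Spag6l, adjusted p from 0.18 to 0.61), and within libraries 9 to 16 Cfap45 was (0.96, adjusted p = 0.0086) and Cfap126 (0.89, adjusted p = 0.053) and Spag6l (0.33, adjusted p = 0.18) were not.

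Over both performance groups together, with performance as a covariate, 6 of the 39 genes were higher and 2 lower in R6/1 mice, against 17.5% of all genes higher and 17.4% lower. Cfap65 (log2 fold change 0.78 ± 0.26, edgeR adjusted p = 0.026) and Cfap54 of the central pair (0.59 ± 0.20, adjusted p = 0.028) were called here and not in either group alone. Cfap65 lost its call without R6/1 poor mouse 1 (adjusted p = 0.064), without the count filter (0.081) and within either set of libraries. Cfap54 lost it without any 1 of R6/1 good mice 1 and 2, R6/1 poor mouse 1, wild-type good mouse 2 and wild-type poor mouse 2 (adjusted p from 0.052 to 0.065), without the count filter (0.068), with the level of other motile cilia genes as a covariate (0.079) and within either set of libraries. Cfap65 was between 8.26 and 18.7 CPM in the 8 R6/1 mice and between 2.09 and 12.5 CPM in the wild-type mice, where wild-type poor mouse 3 was highest. Cfap45, Stk36, Rsph9, Spag6l, Dnah1 and Drc1 were the other genes called. The median log2 fold change of the set was 0.31, and 0.05 without R6/1 poor mouse 1.

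The transcription factors of the set, Foxj1 and Rfx3, showed no call in any comparison as designed, and both were called lower under some alternatives. Foxj1 (chr11:116330704-116335399, minus strand) was at 9.03, 11.1, 11.5 and 11.7 CPM in wild-type good mice, 10, 8.70, 16.3 and 10 CPM in wild-type poor mice, 5.10, 9.08, 9.99 and 8.39 CPM in R6/1 good mice, and 14.1, 9.75, 10.5 and 8.63 CPM in R6/1 poor mice. The groups overlapped, and the log2 fold change was -0.44 ± 0.18 in R6/1 good mice (edgeR adjusted p = 0.091) and -0.04 ± 0.16 in R6/1 poor mice (adjusted p = 0.87). In R6/1 good mice Foxj1 was called lower with the mouse number as a replicate block (-0.45, adjusted p = 0.034) and with the level of other motile cilia genes as a covariate (-0.49, adjusted p = 0.026), and with that covariate also over all R6/1 mice (-0.42, adjusted p = 0.014). In wild-type good mouse 1 Foxj1 was at 81.6% of the median of the other wild-type mice. Rfx3 (chr19:27761721-28011166, minus strand) was at 46.0, 67.0, 66.7 and 76.3 CPM in wild-type good mice, 66.7, 72.5, 74.9 and 70.7 CPM in wild-type poor mice, 64.8, 61, 60.2 and 60.5 CPM in R6/1 good mice, and 60.8, 58.3, 62.3 and 61.5 CPM in R6/1 poor mice. Apart from wild-type good mouse 1 all wild-type mice were above all R6/1 mice. The log2 fold change was -0.16 ± 0.10 in R6/1 poor mice (adjusted p = 0.28), and Rfx3 was called lower without wild-type good mouse 1, at -0.22 in R6/1 poor and -0.20 in R6/1 good mice. It was also called lower in R6/1 poor mice against wild-type poor mice alone (-0.23, adjusted p = 0.022). With the motile cilia covariate it was called lower in R6/1 poor mice (-0.29, edgeR adjusted p = 0.046) and over all R6/1 mice (-0.20, edgeR adjusted p = 0.04). The covariate had r = 0.99 with the mean of the set, so calls made with it are relative to the level of the motile cilia genes.

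Setting R6/1 poor against R6/1 good mice asks whether performance within the genotype goes with these genes. By edgeR none of the 39 genes was called, and 0% of all genes were. At an unadjusted p under 0.05, 14 of the 39 genes were higher (35.9%) and 0 lower, against 8.32% of all genes higher and 7.17% lower. The 14 were Rsph1, Rsph4a, Rsph9, Dnah9, Spag16, Cfap43, Cfap44, Cfap52, Cfap69, Cfap126, Tekt1, Tekt4, Ak7 and Hydin, and most of them vary together between mice, so they are not separate observations. DESeq2, which called 1.17% of all genes higher here, called 1 (Rsph9, adjusted p = 0.028) of the 32 members to which it gave an adjusted p. It gave none to the other 7 (Tekt4, Cfap52, Spag16, Spag17, Dnaaf1, Dnaaf3 and Ak9). The median log2 fold change of the set was 0.63 (0.00 over all genes) and 34 of the 39 were positive. It was 0.36 without R6/1 poor mouse 1, and 0.12 both within libraries 1 to 8, where R6/1 poor mouse 2 stands alone against the 4 R6/1 good mice, and with the set of libraries as a covariate.

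Among single genes Tekt4 had a log2 fold change of 2.21 ± 0.52 and Rsph9 of 0.50 ± 0.12, both with an edgeR adjusted p of 0.25. For Rsph9 the 4 R6/1 poor mice were above the 4 R6/1 good mice (11.7 and more against 10.9 CPM and less). Cfap52, a protein of the lumen of doublet microtubules, was at 0.833, 1.28, 1.23 and 0.949 CPM in R6/1 good mice and at 4.44, 1.54, 2.07 and 2.0 CPM in R6/1 poor mice, and these groups did not overlap either (1.25 ± 0.35, adjusted p = 0.25). It was between 0.0522 and 3.14 CPM in wild-type mice, a range that contains 3 of the R6/1 poor mice. Spag16, of the central pair, was at 3.46, 2.03, 2.35 and 1.68 CPM in R6/1 poor mice and at 0.98, 1.37, 1.87 and 1.05 CPM in R6/1 good mice, with overlap (0.87 ± 0.29, adjusted p = 0.26). Tekt4 was called without R6/1 poor mouse 2 (2.51, adjusted p = 0.042).

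In wild-type mice none of the 39 genes differed between poor and good performers by edgeR, where 0% of all genes were called, and 1 was higher at an unadjusted p under 0.05 against 1.03% of all genes higher and 1.41% lower. This was Cfap54, with 2.30, 4.10, 6.28 and 6.61 CPM in good and 7.66, 6.28, 10.8 and 8.89 CPM in poor performers (0.80 ± 0.30, adjusted p = 1.0). The median log2 fold change of the set was 0.25, again with 34 of 39 positive, and wild-type good mouse 1 is in the lower group and wild-type poor mouse 3 in the higher. The median was 0.08 without wild-type good mouse 1, with 25 of 39 positive, and 0.07 without wild-type poor mouse 3. Spag17 (0.97), Dnah2 (0.48) and Dnai2 (-0.40) had the next smallest p. Whether the difference between performers itself differed between genotypes was tested as an interaction. None of the 39 genes was called, as was 0% of all genes, and 2 were higher at an unadjusted p under 0.05 (Tekt4, 1.80 ± 0.63, and Tekt1, 1.03 ± 0.48, both with an adjusted p of 0.83) against 2.42% of all genes higher and 3.36% lower. The median interaction was 0.26, against a spread between mice of 0.51 for the mean of the set.

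Other lists were read against the shares of all genes called in the same comparisons, which were 12.1% (higher) and 12.4% (lower) for the R6/1 good group, and 13.5% and 14.9% for the R6/1 poor group. Of 60 other motile cilia genes, 56 were tested, and their mean log2 CPM followed that of the set over the 16 libraries (r = 0.99). None was called between R6/1 poor and good mice (median 0.29). In R6/1 good mice 8 were higher and 3 lower than in wild-type mice (median -0.02), and in R6/1 poor mice 10 were higher and 0 lower (median 0.46). The tubulin polymerisation protein gene Tppp3 had the smallest p between the R6/1 groups, with 31.6, 38.6, 42.2 and 29.9 CPM in good and 71.1, 38.6, 60.1 and 63.2 CPM in poor mice (0.73, adjusted p = 0.25), followed by Odf3b (0.99). Iqcg (0.74, adjusted p = 0.0024) and Drc3 (0.50, adjusted p = 0.0027), both of the nexin-dynein regulatory complex, were higher in R6/1 poor than in wild-type mice, the opposite direction to Drc1. Wdr78, of an inner dynein arm, fell by 0.70 in R6/1 good mice and Rsph10b by 0.76.

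Of 13 regulators of multiciliation tested, 2 were higher and 3 lower in each R6/1 group against wild-type mice and 0 differed between the R6/1 groups. Ccno, a cyclin-like protein needed to amplify centrioles, was at 1.5, 3.14, 1.22 and 2.09 CPM in R6/1 poor mice and between 2.71 and 7.06 CPM in wild-type mice (-1.34, adjusted p = 0.0028), and Rfx4 fell by 0.66 (adjusted p = 0.00016). Rfx2 fell by 0.79 and Plk4, the kinase that starts centriole duplication, rose by 0.51 in R6/1 good mice. Trp73 (1.82) and Myb (0.59), both activators of multiciliation, had the smallest p between the R6/1 groups and did not pass the test.

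Of 42 primary cilium genes, 15 rose and 5 fell in the R6/1 good group, and 16 rose and 6 fell in the R6/1 poor group, against wild-type mice, with medians of 0.14 and 0.15, where 12.1% and 13.5% of all genes rose and 12.4% and 14.9% fell. Their mean followed that of the motile cilia set less closely (r = 0.38), and between the R6/1 groups the median was 0.00. The intraflagellar transport gene Ift52 rose by 0.40 and Bbs1, of the complex that carries membrane proteins into the cilium, by 0.36 in R6/1 good mice, whereas the kinesin Kif17 fell by 1.04 in R6/1 poor mice. Bbs2 (-0.19) and Kif17 (-0.44) had the smallest p between the R6/1 groups, with adjusted p of 0.26 each.

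The mean log2 CPM of 13 genes listed as ependymal markers outside the cilium followed that of the set (r = 0.88). This mean gives each gene the same weight, and single genes differed. In wild-type good mouse 1 Prom1 (37.9 CPM) and S100b (234 CPM) were the highest of the wild-type mice. In the same mouse Nnat (161 CPM) was within the range of the other wild-type mice, and Vim (27.5 CPM) was below it. Of the 13, against wild-type mice 2 rose and 2 fell in the R6/1 good group, and 1 rose and 2 fell in the R6/1 poor group. The summed level of all 14 genes of the list, with Mia, which was not tested, was between 758 and 862 CPM in wild-type mice. It was between 664 and 918 CPM in R6/1 good mice and between 644 and 934 CPM in R6/1 poor mice. Vim, an intermediate filament gene of ependymal cells and reactive astrocytes, rose by 0.39 and Prom1 fell by 0.40 in R6/1 poor mice. S100b rose by 0.43 and Nnat fell by 0.41 in R6/1 good mice. Cd24a, a surface protein of ependymal cells and neuroblasts, was at 3.97 CPM in wild-type good mouse 1 and between 8.99 and 22.6 CPM in the other wild-type mice. Fam183b was at 0.104 CPM in that mouse and at 5.34 CPM in R6/1 poor mouse 1, the lowest and the highest of the 16 mice.

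Markers of neighbouring tissue varied between individual mice. Choroid plexus genes (7 of 12 tested) summed to between 17.9 and 60.5 CPM in wild-type good, 29.4 and 40.2 in wild-type poor, 22.0 and 45.0 in R6/1 good and 21.3 and 68.3 in R6/1 poor mice, with R6/1 poor mouse 1 highest, and Slc4a5, Kcnj13 and Cldn2 averaged at most 3 counts per library. Otx2 (1.98) and Sostdc1 (1.65) were called higher in R6/1 poor than in wild-type mice, and Prlr was at 20.6, 4.54, 17.2 and 0.573 CPM in R6/1 poor mice. Clic6 was at 26.2, 18.4, 27.4 and 13.5 CPM in these mice. Septal neuron genes (7 of 7 tested) summed to 230 CPM in R6/1 poor mouse 1 and 159 CPM in mouse 3, to 71.1 and 40.2 CPM in mice 2 and 4, and to between 36.1 and 95.8 CPM in the other groups, with 3 called higher in R6/1 poor mice, among them Zic4 (1.84) and Trpc4 (0.84). Glp1r fell by 1.12 in R6/1 good mice.

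Hypothalamic genes (6 of 10 tested) summed to 41.4, 8.50, 25.8 and 4.66 CPM in R6/1 poor mice, to between 4.07 and 7.13 CPM in R6/1 good mice and to between 6.02 and 15.4 CPM in wild-type mice. Otp (3.0) and Sim1 (3.21) were called higher in R6/1 poor than in wild-type mice, Hcrt and Pmch averaged at most 3 counts per library, Avp had 4.31 between the R6/1 groups without a call, and Trh was at 23.8, 2.80, 14.6 and 1.76 CPM in R6/1 poor mice, while Pomc had 0.18. R6/1 poor mice 1 and 3, high for the septal, hypothalamic and choroid plexus genes, were also the highest of their group for the motile cilia set, whereas wild-type good mouse 3, highest of its group for those 3 lists, was not (1.88). The part of these markers in the result was not tested.

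Neuroblast and dividing cell genes (7 tested) followed the mean of the set (r = 0.90), with summed levels of 43.9 CPM in wild-type good mouse 1, between 91.6 and 130 CPM in the other wild-type mice, between 100 and 121 CPM in R6/1 good mice and between 119 and 151 CPM in R6/1 poor mice, and 0 were called in either R6/1 group. Dlx2 (0.74) and Dlx1 (0.79), which mark newborn interneurons, had the smallest p between the R6/1 groups and did not pass the test. Astrocyte genes (8 tested) did not follow the set over the mice of both genotypes (r = -0.18). Of them 8 were lower in R6/1 good and 5 in R6/1 poor mice, led by the glutamate transporter Slc1a2 (-0.85 and -0.84) and Aldoc (-0.68 and -0.65). In R6/1 poor against wild-type mice 2 of the 8 had positive log2 fold changes. Between R6/1 poor and good mice all 8 were positive and 0 were called (median 0.17). Gjb6 (1.16) and Fgfr3 (0.52) had the smallest p there (edgeR adjusted p = 0.25 each). Cortical excitatory neuron genes (9 tested, 1 lower in each R6/1 group, Rorb at -0.46 and -0.35) ranged from 49.7 to 838 CPM in sum, with wild-type good mouse 1 lowest and R6/1 poor mouse 4 highest. Medium spiny neuron genes (12 tested) were lower in R6/1 good mice for 11 and in R6/1 poor mice for 12, with medians of -1.31 and -2.07, and their mean had r = -0.45 with that of the motile cilia set. Penk, the enkephalin precursor, fell by 2.08 and 2.60 and Adcy5 by 1.31 and 1.78. The part of these cell types in the level of the motile cilia genes was not tested.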

How the data were processed

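RNA-seq of 16 striata was analysed. RNA was purified with TRIzol and RNeasy columns, and libraries were made with a stranded mRNA kit and sequenced in a 75-base paired-end configuration. Per the labels and the study's methods the authors aligned reads with TopHat 1.0.1 to GRCm38/mm10 and deposited raw counts per gene, and they normalised and tested these with DESeq2. The counting tool, its annotation and its strand setting were not given in the sources used here. Gene identifiers were matched to GENCODE vM21 symbols (55450 of 55450), and Dnai1 and Dnai2 are Dnaic1 and Dnaic2 there.

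Counts were tested with edgeR 4.0.16 (TMM, robust quasi-likelihood) in R 4.3.3 on the 19363 genes that reached 10 counts in 4 or more libraries, with Benjamini-Hochberg adjustment and a threshold of 0.05. DESeq2 1.42.0 was an alternative. The log2 CPM used a prior count of 2. Each comparison with wild-type mice used the 8 wild-type mice. No column was left unmapped. The fit was also run on simulated counts for R6/1 poor against R6/1 good and against pooled wild-type mice. Changes were set there only in genes with higher counts, and the outcome is not reported here. Replicates were separate mice, and no pair of libraries agreed within sampling noise.

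The members, the 11 lists, the tests and the rule for named genes were chosen with earlier results of these data known. Named were Foxj1 and Rfx3, per comparison the 4 members with the smallest p and every member called, the 3 highest and the 3 lowest per kilobase, up to 2 genes per list and comparison, the 10 genes most like the set, and the 2 most abundant choroid plexus and hypothalamic markers; other members were named with their role and values. Of 196 list symbols, 195 were matched. Alternatives were scaling, filter, tool, controls, replicate block, set of libraries and leaving out mice. The result of 1 gene of the lists is not reported here.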

Additional observations from a re-analysis of the deposited data

Results flagged for a closer look

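Of 160 groups of 4 mice examined for 1 mouse far from the others, 8 were picked out by Dixon's test, and chance gives about 1 in 20. Wild-type poor mouse 3 was high for Rsph4a (7.31 CPM, others 3.02 to 3.58), Dnah11 (4.25 CPM, others 1.02 to 1.51) and Ak9 (1.47 CPM, others 0.489 to 0.655). Wild-type good mouse 1 was low for Dnah12, a dynein heavy chain (0.157 CPM, others 1.77 to 1.82). Wild-type good mouse 4 was high for Dnah1 (26.2 CPM, others 21.0 to 21.5), and wild-type poor mouse 1 was low for Cfap69 (17.4 CPM, others 23.0 to 24.2). Among R6/1 good mice, mouse 2 was high for Dnah5 (5.49 CPM, others 2.70 to 3.15) and mouse 4 low for Tekt1 (1.25 CPM, others 1.91 to 1.99).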

How the results depend on the processing

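Of 983 values of single genes and group means under an alternative, 920 counted as the same, 38 lost the call, 14 gained one and 11 changed sign. A gene counted as the same where it kept its direction and its side of the threshold, with a missing DESeq2 adjusted p read as not called. A group mean counted as the same where it moved by less than the SD of its group. For R6/1 poor against R6/1 good mice the number of the 39 genes called was 0, and 1 with DESeq2 (Rsph9), where 1.84% of all genes were called. It ranged from 0 to 1 when each mouse was left out (1, Tekt4, without R6/1 poor mouse 2, where 0.315% of all genes were called). The median log2 fold change of 0.63 became 0.12 with the set of libraries as a covariate and 0.12 within libraries 1 to 8. It became 0.07 with the level of the other motile cilia genes as a covariate. That level had r = 0.99 with the mean of the set. Adjusting for it takes out the change shared by the set by construction, so the medians under it are not a check of the comparison. For R6/1 good against wild-type mice the 3 calls (24.6% of all genes called) became 6 with the motile cilia covariate (23.3% of all genes). They became 5 without wild-type good mouse 1, wild-type poor mouse 3 and R6/1 poor mouse 1 (20.8% of all genes), both settings chosen after seeing the data. When each mouse was left out they ranged from 3 to 5 (5 without wild-type good mouse 1, where 23.2% of all genes were called). For R6/1 poor against wild-type mice the 8 calls became 13 when all 4 groups shared 1 fit (29.9% of all genes called) and 1 within libraries 1 to 8 (2.3% of all genes), where the spread of the lone R6/1 poor mouse is taken from the other mice, and ranged from 5 (without R6/1 poor mouse 1) to 13 (without wild-type poor mouse 3), and the median of 0.66 became -0.10 with the motile cilia covariate. For all R6/1 against all wild-type mice the 8 calls became 4 within libraries 1 to 8 (20.7% of all genes called) and 5 within libraries 9 to 16 (8.96% of all genes), where the R6/1 mice are R6/1 poor mice 1, 3 and 4 alone (Cfap45, Rsph9, Stk36, Tekt4 and Rfx3, the last lower at -0.24). The median interaction of 0.26 became -0.31 within libraries 1 to 8. Signs changed for values near 0: Rfx3 between the R6/1 groups (0.01 without the count filter, -0.02 to 0.02 leaving out mice), Foxj1 between wild-type groups (-0.05 within libraries 1 to 8, -0.11 with the motile cilia covariate, -0.17 to 0.16 leaving out mice) and in R6/1 poor against wild-type mice (-0.20 to 0.06 leaving out mice), and also for Tekt4 in R6/1 poor against wild-type mice (-0.15) and the interaction of Tekt1 (-0.30), both within libraries 1 to 8. The cause was not tested. Mice with the same number in different groups did not pair (correlations of deviations from -0.35 to 0.23). With replicate block there were 0 calls for R6/1 poor against good mice (0.496% of all genes called) and 0 for wild-type poor against good mice (0%). Against wild-type mice there were 4 for R6/1 good (24.0%), 8 for R6/1 poor (26.5%) and 8 for all R6/1 mice (33.6%). The interaction had 0 (0%). The medians in this order were 0.56, 0.32, -0.02, 0.67, 0.33 and 0.26. Within libraries 9 to 16 R6/1 poor against R6/1 good mice, R6/1 good against wild-type mice and the interaction could not be fitted. Low counts limit Tekt4 (4 to 79 counts per library) and Spag17.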
